A study of Rattus norvegicus with 15 samples.

Results

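Gene expression in rat brain 72 h after an intracerebral hemorrhage (ICH, bleeding into the brain tissue) was compared with that after a sham operation, across every gene of the deposited count table. The members were taken by label: 3 ICH libraries (replicates 1, 2 and 5) and 5 Sham libraries (replicates 1 to 5), 8 of the 11 libraries in the table. All 15094 genes of the table entered by Ensembl ID, and 14963 passed a filter on low counts and were tested. The tissue is labelled brain, with basal ganglia cells as the cell type, from Sprague-Dawley rats, an outbred laboratory strain. Sham rats had the operation without a labelled hemorrhage or drug, and ICH rats had the hemorrhage and no labelled drug. A further group (ICH_MA, 3 libraries) had the hemorrhage followed by mithramycin A. It entered here only through the filter, the scaling of libraries and the estimate of the spread of each gene. The design names 5 rats in each group. Another 4 labelled samples, ICH replicates 3 and 4 among them, were not analysed here. The sources used here do not say how the hemorrhage was made, or the sex and age of the rats. Where nothing says that replicates came from separate rats, the p-values measure only the spread between these libraries.

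After bleeding into the brain, blood components such as hemoglobin and iron reach tissue that normally does not meet them, resident microglia and astrocytes respond, leukocytes enter, and neurons and their connections around the clot are lost. Days after the bleed, tissue near the clot is known for raised expression of inflammatory, phagocytic, iron-handling and scar-forming genes and lowered expression of neuronal genes. The files give no gene symbols, and no table used here pairs the Ensembl IDs with names (0 of 15094 IDs matched). The genes below could therefore not be assigned to these groups, the labelled tissue could not be checked against its markers, and no sequence is shown. In bulk tissue, fewer cells of a type and less RNA per cell cannot be told apart.

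Libraries held 56393423 to 67733469 counts in Sham and 58317912 to 65438000 in ICH, and all carried 1 batch date. The median size of the log2 difference over genes was taken for each pair of libraries. It was 0.10 to 0.13 for the 6 pairs among Sham replicates 2 to 5, 0.14 to 0.17 for the 4 pairs with Sham replicate 1, and 0.15 for ICH replicates 1 and 2. By this measure a pair of libraries lay away from their own group. ICH replicate 5 differed by a median of 0.131 from Sham replicate 1, less than from any of the other Sham libraries (0.162 to 0.190) or from ICH replicates 1 and 2 (0.185 and 0.176). Sham replicate 1 in turn lay nearer to ICH replicate 5 than to any other Sham library (0.137 to 0.167). By the share of genes at least 2-fold apart, the order was different for Sham replicate 1 only. It differed in 4.22% of the genes from ICH replicate 5 and in 2.99% to 4.07% from the other Sham libraries. ICH replicate 5 was still nearest to Sham replicate 1. It differed in 4.86% to 5.76% of the genes from Sham replicates 2 to 5, and in 5.71% and 5.35% from ICH replicates 1 and 2. Some results below are also given without this pair. These are the count of changed genes, the changes under 1.5-fold and the part of rises by level. The intervals of genes not called, the shares of counts and the agreement of rises by size are given so too. Median levels, median changes and SE by level, and the agreement of falls are given only with the pair.

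In ICH brain 3662 genes changed, 24.5% of the 14963 tested: 2250 rose (15%) and 1412 fell (9.44%). The test was edgeR's quasi-likelihood F test with Benjamini-Hochberg adjustment and a threshold of 0.05 on the adjusted p. The count was 4484 without ICH replicate 5, 4230 without Sham replicate 1 and 4940 without both. Leaving out ICH replicate 1 gave 1992 and leaving out ICH replicate 2 gave 2231. Rises were 61.4% of the changed genes, and 75.7% when libraries were scaled by their totals alone. The split between rises and falls therefore depended on the scaling. By this fit and any of the 17 alternative fits, 0 genes were called in opposite directions. All of these fits used the same libraries or most of them, which makes such a reversal unlikely in any case.

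Most of the changes were small. Among the rises, 986 (43.8%) were under 1.5-fold, 519 were 1.5- to 2-fold, 470 were 2- to 4-fold and 275 were 4-fold or more. Among the falls, 1190 (84.3%) were under 1.5-fold, 165 were 1.5- to 2-fold, and 57 reached 2-fold. The larger rises belonged to genes with low levels. The median level over the 8 libraries was 34.5 CPM (counts scaled to a common library total) for rises under 1.5-fold, 11.6 CPM for those of 1.5- to 2-fold, 5.31 CPM for 2- to 4-fold and 3.12 CPM for 4-fold and over. Falls under 1.5-fold had a median level of 84.1 CPM. Without ICH replicate 5 and Sham replicate 1, changes under 1.5-fold were 41.7% of 2811 rises and 78.3% of 2129 falls.

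**Figure D1:**
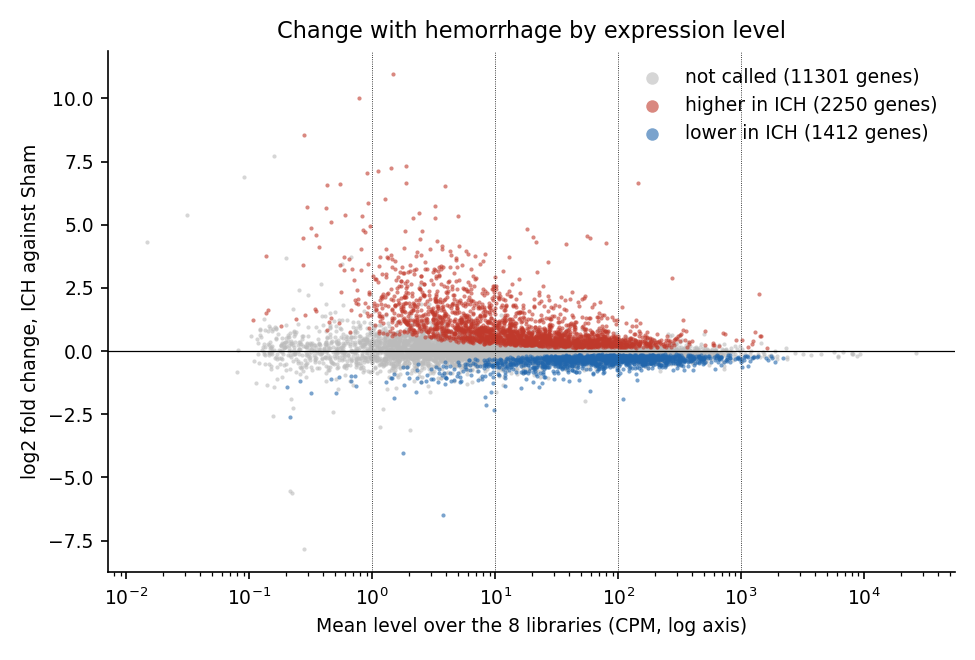
Log2 fold change of ICH against Sham (vertical axis) by mean level over the 8 libraries (horizontal axis, CPM, log scale), 1 point per gene, with dotted lines at 1, 10, 100 and 1000 CPM. The 2250 genes called higher reach large fold changes mostly at low levels. The 1412 called lower lie mostly close to 0, with 761 of them at 10 to 100 CPM and 525 at 100 to 1000 CPM.

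Genes were then divided by their mean level over the 8 libraries. The direction of change differed between these strata. Of the 3721 genes at 1 to 10 CPM, 861 rose (23.1%) and 96 fell (2.58%). Of the 8444 genes at 10 to 100 CPM, 1140 rose (13.5%) and 761 fell (9.01%). Of the 2144 genes at 100 to 1000 CPM, 182 rose (8.49%) and 525 fell (24.5%). Rises thus outnumbered falls at 1 to 10 and 10 to 100 CPM, and falls outnumbered rises at 100 to 1000 CPM. Rises made up 90.0% of the changed genes at 1 to 10 CPM, 60.0% at 10 to 100 CPM and 25.7% at 100 to 1000 CPM. At the ends of the range, 58 of 589 genes under 1 CPM rose and 11 fell, and 9 of 65 genes at 1000 CPM and over rose and 19 fell.

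Over the 17 alternative fits, rises made up 85.6% to 94.2% of the changed genes at 1 to 10 CPM, 51.3% to 76.5% at 10 to 100 CPM and 20.4% to 42.4% at 100 to 1000 CPM, so the order of these strata was kept in all of them. Without both ICH replicate 5 and Sham replicate 1, rises made up 87.3%, 56.0% and 23.4% of the changed genes at 1 to 10, 10 to 100 and 100 to 1000 CPM. With library totals alone the values were 93.0%, 76.5% and 42.4%, and at 1000 CPM and over 11 genes rose and 10 fell, so that rises were the larger part there (52.4%). Dividing the genes by their Sham mean in place of the mean of both groups gave 91.4%, 58.0% and 21.8%, and dividing them by their ICH mean gave 84.9%, 62.3% and 34.3%. Under 1 CPM this choice mattered more: 220 genes rose and 11 fell (95.2% rises) by the Sham mean, and 21 rose and 20 fell (51.2%) by the ICH mean.

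**Figure D2:**
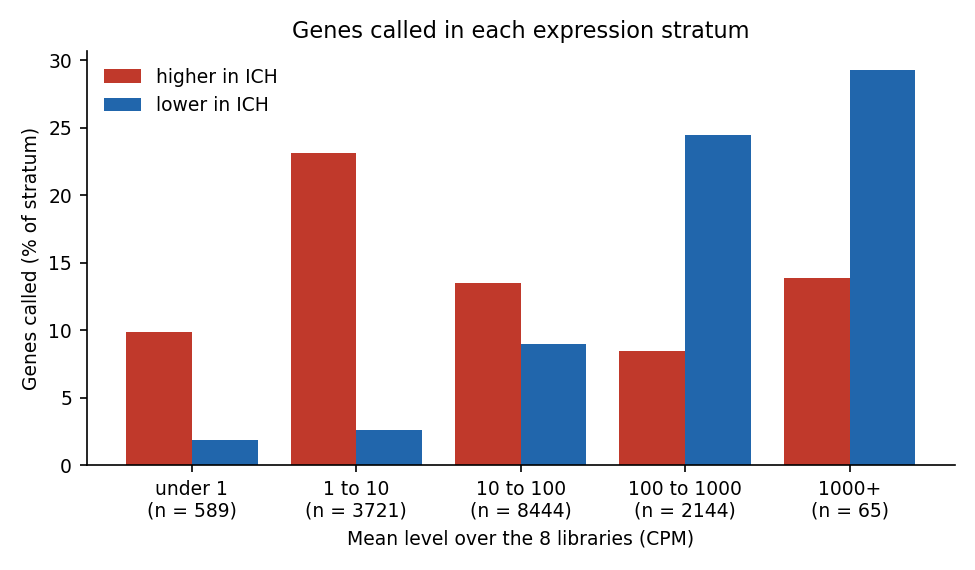
Share of genes called higher (red) or lower (blue) in ICH within each stratum of mean level over the 8 libraries; n is the number of genes tested in the stratum. Rises fall from 23.1% at 1 to 10 CPM to 8.49% at 100 to 1000 CPM, and falls increase from 2.58% to 24.5%.

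The size of the change and its precision moved with level as well. The median log2 fold change of the rises was 2.61 under 1 CPM, 1.17 at 1 to 10 CPM, 0.47 at 10 to 100 CPM and 0.33 at 100 to 1000 CPM. For the falls it was −1.19, −0.76, −0.35 and −0.30. A log2 fold change had a median SE of 0.38 under 1 CPM, where a gene had a median of 24.5 counts per library, against 0.07 at 100 to 1000 CPM, where it had 10579.5. The smallest change that passed the test was accordingly 0.74 under 1 CPM and 0.12 at 100 to 1000 CPM on the log2 scale. Small changes could therefore pass at high levels and not at low ones. Over all genes of a stratum, called or not, the median log2 fold change was 0.14 under 1 CPM, 0.17 at 1 to 10 CPM, −0.00 at 10 to 100 CPM, −0.10 at 100 to 1000 CPM and −0.18 at 1000 CPM and over.

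For the 11301 genes that were not called, the interval of the fold change shows what the data could have missed. An approximate 95% interval lay within 2-fold in either direction for 10238 of them (90.6%), and for 87.2% of 10036 without ICH replicate 5 and Sham replicate 1. The share was 31.5% under 1 CPM, 80.9% at 1 to 10 CPM, 97.6% at 10 to 100 CPM and 98.3% at 100 to 1000 CPM. A change of 2-fold was thus often not detectable in genes under 1 CPM at this depth.

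The shift between strata was also seen in the share of all counts that each took, a measure that needs no gene to be called. Genes at 1 to 10 CPM took 1.72%, 1.69%, 1.63%, 1.70% and 1.67% of the counts in Sham replicates 1 to 5, and 2.27%, 2.25% and 1.90% in ICH replicates 1, 2 and 5. All 3 ICH libraries lay above all 5 Sham libraries, with ICH replicate 5 the nearest to them. Genes at 100 to 1000 CPM took 47.6%, 48.2%, 48.5%, 47.9% and 47.8% in Sham replicates 1 to 5 and 46.0%, 46.2% and 47.4% in ICH replicates 1, 2 and 5. Here the ICH libraries lay below the Sham libraries, and the gap between Sham replicate 1 and ICH replicate 5 was small. The means were 1.68% ± 0.033 (SD, n = 5) in Sham against 2.14% ± 0.21 (SD, n = 3) in ICH at 1 to 10 CPM, and 48.0% ± 0.35 and 46.6% ± 0.78 at 100 to 1000 CPM. For both differences the exact permutation p (two-sided) was 0.0357, the smallest that 3 against 5 libraries can give, and 0.0476 after Benjamini-Hochberg adjustment over 8 measures. Without ICH replicate 5 and Sham replicate 1 the means were 1.67% in Sham and 2.26% in ICH at 1 to 10 CPM, and 48.1% and 46.1% at 100 to 1000 CPM. The groups again did not overlap, and the exact permutation p was 0.133, the smallest that 2 against 4 libraries can give.

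The other strata passed the same test with the same p-values, and so did the number of genes with at least 1 count. That number was 15043, 15037, 15021, 15047 and 15037 in Sham replicates 1 to 5 and 15055, 15068 and 15055 in ICH replicates 1, 2 and 5, a higher number in every ICH library. Total counts did not differ beyond the spread (exact permutation p = 0.464). The share of counts in the 10 highest genes did not either, at 9.44% ± 0.32 in Sham (SD, n = 5) against 9.01% ± 0.28 in ICH (SD, n = 3; exact permutation p = 0.143). The strata were formed with the same libraries, and the shares of a library add up, so these measures are not independent of each other.

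The agreement of the 3 ICH libraries was described gene by gene, by counting how many of them lay beyond all 5 Sham libraries. All 3 lay above the Sham range for 2270 genes, 15.2% of those tested, and below it for 1626, 10.9%. With library totals alone these numbers were 2856 and 1009. Of the 2250 genes called higher, 1882 (83.6%) had all 3 ICH libraries above the Sham range and 363 (16.1%) had 2. Of the 1412 called lower, 1157 (81.9%) had all 3 below it and 229 (16.2%) had 2. The same test chose the genes and used the same libraries, so these shares describe the called genes and support nothing further. With all libraries, larger rises agreed more often. All 3 libraries were above the Sham range for 79.0% of rises under 1.5-fold, 83.6% of those of 1.5- to 2-fold, 87.7% of those of 2- to 4-fold and 93.5% of those of 4-fold and over. Without ICH replicate 5 and Sham replicate 1, both ICH libraries lay above the remaining Sham libraries for 99.2%, 99.4%, 98.8% and 99.2% of the rises in these classes. Fewer libraries need to agree there and nearly all called rises did, so these shares cannot show whether larger rises agree more often. The shares did not move steadily with level. At 1 to 10, 10 to 100 and 100 to 1000 CPM they were 84.0%, 83.0% and 86.3% for rises and 88.5%, 79.6% and 83.6% for falls.

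**Figure D3:**
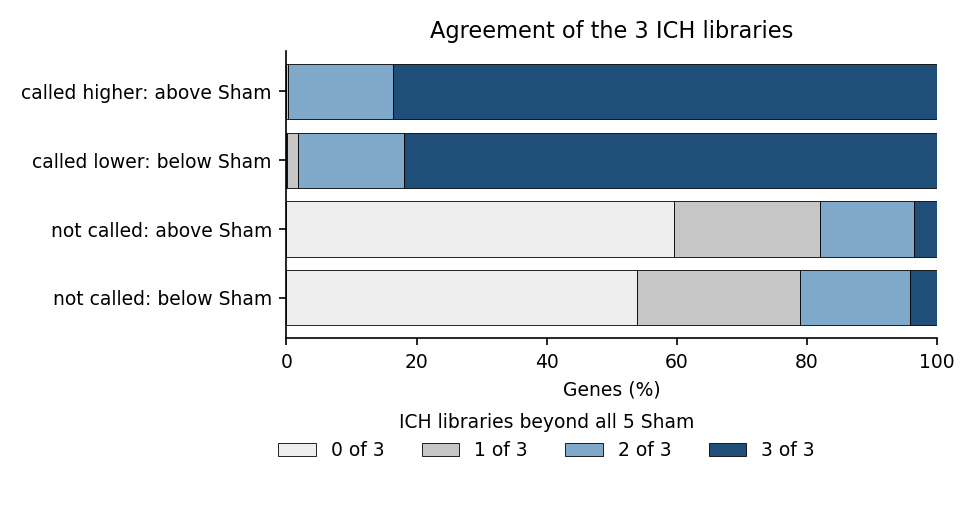
Share of genes (horizontal axis, %) with 0, 1, 2 or 3 of the ICH libraries beyond all 5 Sham libraries, for genes called higher, called lower and not called. All 3 libraries lie beyond the Sham range in 83.6% of the genes called higher and 81.9% of those called lower, against 3.43% (above) and 4.15% (below) of those not called.

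Agreement and the test did not always coincide. Among the 11301 genes not called, 388 had all 3 ICH libraries above the Sham range and 469 had all 3 below it. These were small differences, with a median log2 fold change of 0.21 and −0.18. Over all 14963 genes tested, 1064 (7.11%) had at least 1 ICH library above the Sham range and at least 1 below it.

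Where only 2 of the ICH libraries agreed, the exception was mostly replicate 5. There were 1340 genes with replicates 1 and 2 above the Sham range and replicate 5 not, against 285 where replicate 1 was the exception and 377 where replicate 2 was. Below the range the corresponding numbers were 1234 for replicate 5, 413 for replicate 1 and 495 for replicate 2. In all, ICH replicate 1 lay beyond the Sham range in 63.1% of the genes tested, replicate 2 in 60.4% and replicate 5 in 46.1%. Without replicate 5, both remaining libraries lay beyond the Sham range for 6470 genes in place of 3896, where fewer libraries need to agree. Without Sham replicate 1 all 3 ICH libraries did so for 5211, where fewer Sham libraries set the range.

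Each Sham library was also set against the other 4. Sham replicate 1 lay beyond their range in 52.9% of the genes, and replicates 2, 3, 4 and 5 in 31.0%, 41.4%, 38.6% and 35.6%. Against sets of 4 Sham libraries, ICH replicates 1, 2 and 5 lay beyond the range in 67.4%, 64.8% and 52.1%, each a mean over the 5 sets. By this measure Sham replicate 1 stood about as far from the other Sham libraries as ICH replicate 5 did from sets of Sham libraries, most of which include Sham replicate 1.

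The order of the ICH libraries within the called genes was uneven. Replicate 1 was the highest of the 3 in 1424 of the 2250 rises (63.3%), replicate 2 in 752 and replicate 5 in 74. Replicate 5 was the lowest in 1970 rises (87.6%). Among the 1412 falls, replicate 5 was the least lowered in 923 (65.4%), and replicates 1 and 2 were the lowest in 678 and 609. In the genes not called, each of the libraries was the highest in 30.3% to 36.8%. The genes not called were not divided by direction, so an order that reverses between rises and falls would average out there. Their shares can therefore not be compared with those of the called genes.

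**Figure D4:**
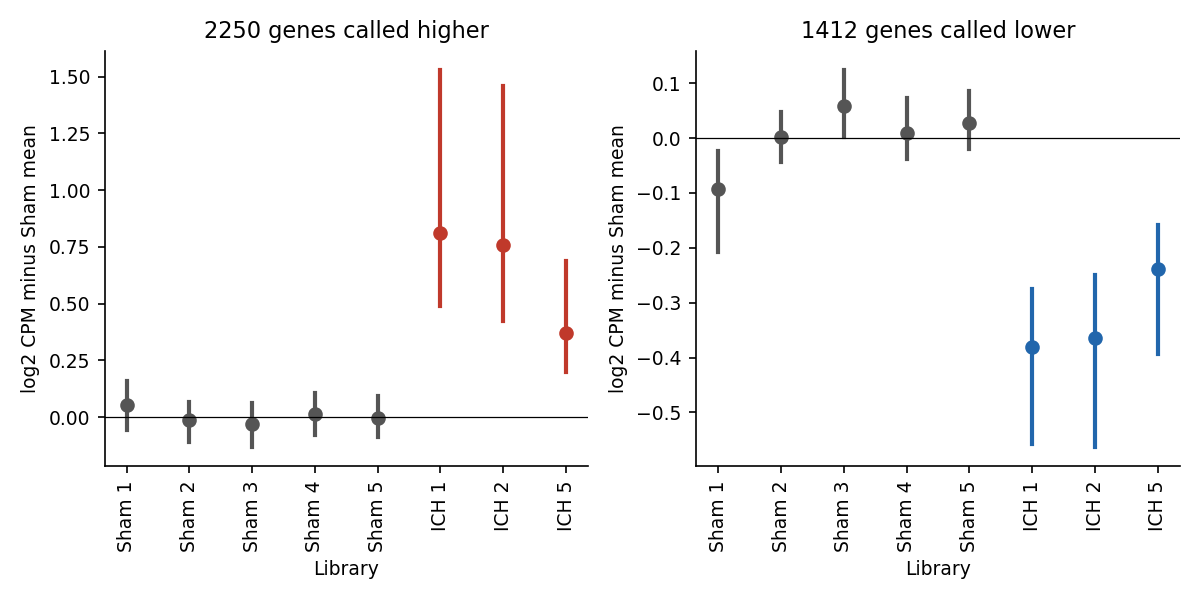
Median (point) and quartiles (line) of log2 CPM minus the Sham mean (vertical axis) in each of the 8 libraries, over the 2250 genes called higher (left) and the 1412 called lower (right); grey marks Sham. ICH replicate 5 lies between Sham and ICH replicates 1 and 2 in both sets, and Sham replicate 1 lies on the ICH side of 0.

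Over the genes called higher, the median of log2 CPM minus the Sham mean was 0.81 in ICH replicate 1, 0.76 in replicate 2 and 0.37 in replicate 5. Over the genes called lower it was −0.38, −0.36 and −0.24. A rise of at least 2-fold above the Sham mean was reached by 906 of the genes called higher in replicate 1, 873 in replicate 2 and 344 in replicate 5. The SD of log2 CPM was larger in ICH than in Sham for 78.0% of the genes called higher, 61.0% of those called lower and 53.7% of those not called.

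To see each ICH library in genes it had not helped to choose, genes were called without it, and its values in those genes were then read. Calls without replicate 1 numbered 1992 (13.3% of 14982 genes), 1384 higher and 608 lower. In replicate 1 itself, 99.0% of these rises were above the Sham mean and 97.5% above the Sham range, and 99.0% of the falls were below the mean and 90.6% below the range. Over all genes, replicate 1 was above the Sham mean in 51.7%, above the range in 33.1% and below it in 29.9%. The same Sham libraries chose the genes and served as the reference. The median log2 difference of replicate 1 from Sham was 1.04 over these rises, where the other ICH libraries had 0.81.

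Calls without replicate 2 numbered 2231 (14.9%), 1506 higher and 725 lower. In replicate 2, 99.4% of the rises were above the Sham mean and 97.3% above the range, and 95.0% of the falls were below the mean and 84.0% below the range. Over all genes these shares in replicate 2 were 50.4% above the mean, 31.5% above the range and 28.8% below it. Calls without replicate 5 numbered 4484 (29.9%), 2641 higher and 1843 lower. In replicate 5, 92.3% of these rises were above the Sham mean and 71.5% above the range, and 89.2% of the falls were below the mean and 63.0% below the range. For comparison, over all genes ICH replicate 5 was above the Sham mean in 52.7%, above the range in 24.5% and below it in 21.6%. Replicate 5 thus moved in the same direction as the others in most genes, and by less.

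The median log2 difference of ICH replicate 5 from Sham was 0.29 over the genes called higher without it, against 0.71 in replicates 1 and 2, and −0.16 against −0.37 over those called lower. It was smaller in every class of fold change. Among rises of 4-fold and over (364 genes) the median was 1.37 in replicate 5 and 2.76 in replicates 1 and 2, and 91.2% lay above the Sham range in replicate 5. Among rises of 2- to 4-fold (551 genes) it was 0.58 and 1.38, with 80.8% above the range. Among rises under 1.5-fold (1093 genes) it was 0.14 and 0.37, with 59.9% above the range. Falls of 2- to 4-fold (78 genes) had medians of −0.71 and −1.18, with 74.4% below the range. Replicates 1 and 2 chose these genes, which favours larger values in them, and the Sham libraries were common to the choice and to the reading.

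The Sham libraries were read in the same way, each against the other 4 in genes called without it. Sham replicate 1 leaned towards ICH. It lay on the ICH side of the other Sham libraries in 70.9% of the 2307 genes called higher without it and in 88.5% of the 1923 called lower. For Sham replicates 2 to 5 these shares were 45.3% to 59.4% of the rises and 30.9% to 57.6% of the falls. Sham replicate 1 was also above the range of the other 4 in 44.3% of the rises, against 15.9% to 26.4% for the others. It was below that range in 68.7% of the falls, against 13.2% to 20.1%. Over all genes Sham replicate 1 was above the mean of the other 4 in 51.4%, above their range in 26.8% and below it in 26.1%. Its shift was small in size, with a median log2 difference of 0.12 over the rises and −0.15 over the falls, against −0.02 to 0.04 and −0.02 to 0.06 for the others. The held-out median over the falls was −0.15 in Sham replicate 1 and −0.16 in ICH replicate 5, and over the rises it was 0.12 and 0.29. These values are not on the same footing, because the genes were different lists. The reference was Sham replicates 2 to 5 for Sham replicate 1 and all 5 Sham libraries for ICH replicate 5. Dixon's ratio is the gap to the nearest Sham library over the range of all 5. For Sham replicate 1 it was 0.450 to 0.649 over the shares on the ICH side and the medians. These ratios were under the critical value of 0.71, so Sham replicate 1 was not flagged as an outlier by this rule. What sets Sham replicate 1 and ICH replicate 5 apart from their groups was not tested.

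A narrower set of genes was called in the full fit and again each time 1 of the 8 libraries was left out. It held 1255 of the 2250 rises (55.8%) and 427 of the 1412 falls (30.2%). Of these rises 605 were at least 2-fold, and the median log2 fold change was 0.96, against 0.68 over all rises. For these falls the median was −0.41. The rises of this set had a median level of 13.3 CPM and the falls of 86.2 CPM. All 3 ICH libraries lay above the Sham range in 1238 of the 1255 and below it in 420 of the 427. At 1 to 10 CPM the set held 513 rises and 23 falls, and at 100 to 1000 CPM 107 rises and 191 falls. It held 28 rises and 3 falls under 1 CPM, 602 and 207 at 10 to 100 CPM, and 5 and 3 at 1000 CPM and over. Within this set rises thus outnumbered falls in each stratum except 100 to 1000 CPM. The set is a part of the called genes and comes from the same libraries, so it is no separate support for the contrast between levels.

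Values of 4 genes are given by library. They had the smallest p in each direction among genes with all 3 ICH libraries beyond the Sham range and a mean of at least 10 CPM, criteria met by 1111 rises and 1061 falls. ENSRNOG00000014117 was at 5.20, 5.45, 4.68, 4.05 and 5.38 CPM in Sham replicates 1 to 5 and at 129, 87.7 and 59.9 CPM in ICH replicates 1, 2 and 5. Its ICH libraries lay far above Sham, and replicate 5 was the lowest of them. Group means were 4.95 ± 0.59 CPM (Sham, SD, n = 5) against 92.3 ± 34.9 CPM (ICH, SD, n = 3). The log2 fold change of 4.22 ± 0.25 (SE) had an adjusted p of 2.95e-05 by edgeR.

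ENSRNOG00000008816 was at 5.84, 7.87, 6.79, 6.01 and 6.69 CPM in Sham replicates 1 to 5 and at 226, 144 and 72.7 CPM in ICH replicates 1, 2 and 5. The groups did not overlap, and the ICH libraries stood in the same order as for the gene before. Group means were 6.64 ± 0.80 CPM (Sham, SD, n = 5) against 148 ± 76.8 CPM (ICH, SD, n = 3). It rose by 4.47 ± 0.32 (SE) on the log2 scale, with an adjusted p of 9.17e-05 by edgeR. In both genes Sham replicate 1 was not the Sham library nearest to ICH.

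ENSRNOG00000011202 was at 82.4, 88.9, 84.1, 94.7 and 87.2 CPM in Sham replicates 1 to 5 and at 56.9, 54.1 and 49.7 CPM in ICH replicates 1, 2 and 5. Here ICH replicate 5 was the most lowered of the 3, unlike in most falls, and Sham replicate 1 was the Sham library nearest to ICH. It changed by −0.71 ± 0.07 (SE) on the log2 scale, with an adjusted p of 0.000167 by edgeR. ENSRNOG00000001143 was at 148, 149, 151, 155 and 147 CPM in Sham replicates 1 to 5 and at 110, 95.2 and 112 CPM in ICH replicates 1, 2 and 5. The Sham values were close together, and all ICH values lay below them. Its change of −0.51 ± 0.06 (SE) on the log2 scale had an adjusted p of 0.000306 by edgeR. Both falls were under 2-fold, and 130 and 305 other falls were larger in size. The 4 genes kept direction and call in all 17 alternative fits, with adjusted p up to 0.00136, 0.00279, 0.00569 and 0.00928 in the order given. They were chosen by the smallest p, and the alternative fits used the same libraries or most of them. Keeping the call was therefore likely from the choice and is no separate support.

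**Figure D5:**
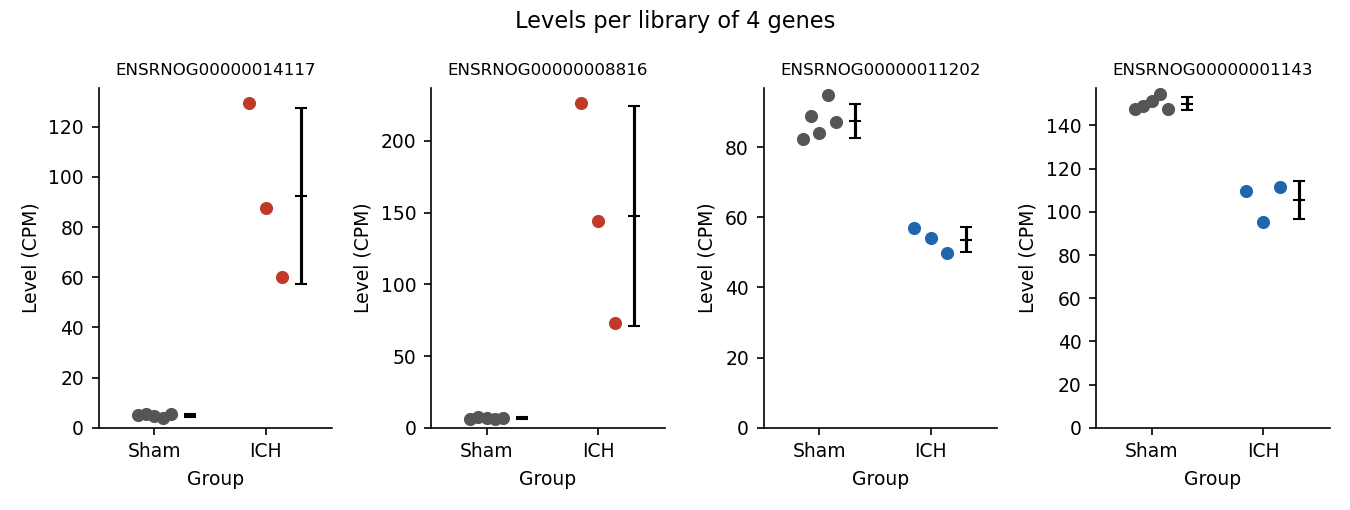
Level in CPM (vertical axis, from 0) of the 4 genes in each Sham (grey) and ICH (coloured) library, with mean and SD beside the points; ICH points run from replicate 1 to 2 to 5, left to right. ICH replicate 5 is the lowest ICH library in both genes that rose and the lowest in ENSRNOG00000011202.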

How the data were processed

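RNA sequencing counts from 8 libraries (3 ICH, 5 Sham) were compared. The table deposited by the authors gives raw counts as whole numbers for each gene. Per the submitters' processing notes, the authors used Bowtie2, RSEM 1.3.1, DESeq2 1.4.5 and the build mRatBN7.2; roles, annotation release, strand, filters and rounding were not given in the sources used here, so reads of near-identical, overlapping or antisense genes may be divided between IDs.

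Columns were matched to samples by library name. Genes were kept by filterByExpr (minimum count 10, minimum total 15). All 11 libraries entered 1 edgeR 4.0.16 quasi-likelihood model (TMM scaling, a mean per group, R 4.3.3). The code was checked on simulated counts for the fold changes it returned. That check does not measure how often genes are falsely called in these data. P-values were adjusted by Benjamini-Hochberg over all 14963 genes and called under 0.05. CPM used TMM-scaled totals, and log2 CPM a prior count of 2. The SE of a log2 fold change was derived from the test, as the size of the change over the square root of the F statistic. Intervals of fold changes came from this SE and the model's degrees of freedom, and are approximate. Library measures were compared by exact permutation.

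Genes, lists and comparisons were chosen with earlier results of these data known. The 40 gene lists by symbol could not be applied. Named genes were the 2 rises and 2 falls with the smallest p among called genes of at least 10 CPM whose groups did not overlap. Alternatives were other scalings, filters, DESeq2 1.42.0, limma-voom (limma 3.58.1), ICH and Sham alone, a replicate block and libraries left out.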

Additional observations from a re-analysis of the deposited data

How the results depend on the processing

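The count of 3662 changed genes stayed within 1.5 times under other scalings, other filters, DESeq2 (4567), limma-voom (3531) and with ICH and Sham alone in the model (3125), and was 1687 at an adjusted p under 0.01. Leaving out 1 library gave 1992 (without ICH replicate 1) to 4484 (without ICH replicate 5), and leaving out ICH replicate 5 with Sham replicate 1, also chosen after seeing the data, gave 4940. With a replicate block it was 1914, 1426 higher and 488 lower. Replicate numbers carry no stated pairing: the deviations of same-numbered ICH and Sham libraries correlated at −0.02, −0.04 and −0.12 across genes, and 0 of 3 ICH libraries correlated best with its own number. Genes with all ICH libraries beyond the Sham range numbered 4201 to 6470 with 1 library left out, against 3896 with all. Leaving out a library can only loosen this condition, so the number could not become smaller. Of genes under 1 CPM 11.7% changed, 18.3% of the 120 left by the stricter filter (at least 1 CPM in 3 libraries). The 2 divisions chosen after seeing the data gave 30.0% under 1 CPM by Sham mean (220 rises, 11 falls) and 7.50% by ICH mean (21 rises, 20 falls); in the other strata the share stayed within 1.5 times. Low counts limit precision under 1 CPM.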
